A study of Mus musculus with 10 samples.

Results

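miR-375-3p is a single mature miRNA, 1 of 721 listed in either of the 2 deposited tables (679 for brown fat, 436 for plasma, 394 in both). It was found by its name in both tables, and it was selected on its read counts, above all those in plasma. Its levels, and its difference between the plasma groups, are therefore given as a description with no test.

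miR-375 is best known from the pancreatic islet, where it is among the most abundant miRNAs of beta cells, restrains insulin secretion and supports beta cell mass. It is also found in other endocrine cells, in the pituitary and in epithelia of the gut and airway. Small extracellular vesicles (sEV) are membrane particles released by cells that carry miRNAs, and those in plasma come from many tissues, whereas brown adipose tissue (BAT) is the heat-producing fat depot.

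The study sequenced small RNA from sEV of C57BL/6J mice to ask which vesicle miRNAs differ with exercise. The 10 libraries form 4 groups. Sed BAT (3 libraries) and Exe BAT (3) come from brown adipose tissue vesicles, and Sed plasma (2) and Exe plasma (2) from plasma vesicles. The descriptions of the plasma libraries hold the label wt, read here as wild type, and those of the BAT libraries hold no such label. The titles call the groups Sed and Exe, read here as sedentary and exercised, while the series' design text speaks of sampling on either side of the exercise. The label for the exercise, sessions of 90 min given 2 times a day for 4 weeks, is the same for every library, Sed included. The labels used here state neither age, nor sex, nor pooling of animals. They do not say whether replicates came from separate animals, and the p-values describe the spread among libraries, possibly a technical one.

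The brown fat libraries held 104064 to 172279 miRNA reads and the plasma libraries 1209116 to 1798169. Brown fat miRNAs (9 in the list, among them miR-378a-3p and miR-193b-3p) made up 7.24% to 31.3% of reads in the BAT libraries and 0.11% to 0.502% in the plasma libraries. Red cell miRNAs made up 12.7% to 70.0% of reads in plasma and 3.47% to 7.15% in BAT. Other lists differed between the sources too. Muscle miRNAs made up 2.51% to 5.59% of reads in BAT and 0.207% to 0.683% in plasma. Platelet and endothelial miRNAs made up 6.05% to 11.6% in BAT and 2.41% to 5.83% in plasma. Liver miRNAs were higher in plasma, at 1.83% to 6.26% against 0.00345% to 0.0763% in BAT. The cells that the vesicles came from were not tested. The library Sed BAT replicate 2 stood apart, with 7.24% brown fat miRNA reads.

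The gene Mir375 lies on the minus strand of chromosome 1, at chr1:74900658-74900721 in GRCm38. GENCODE M21 places it between genes and not within one. The nearest protein-coding genes are Cfap65, a cilia and flagella gene 1350 bp away, and Cryba2, a lens crystallin gene 7515 bp away, with the antisense RNA Gm15841 at 1650 bp and the transcription factor gene Fev at 15239 bp. The hairpin is shown because both arms of the miRNA are cut from it, with the miR-375-5p arm in capitals, as given by RefSeq on GRCm38.p6.
Mir375 hairpin: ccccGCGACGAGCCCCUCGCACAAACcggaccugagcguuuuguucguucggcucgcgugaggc
The hairpin is 64 bases long and 67.2% G or C, against a median of 51.7% over 997 mouse hairpins in the same RefSeq table, of which 94.6% have a lower content. The 5p arm is shown with its seed (bases 2 to 8, the part that pairs with target messages) in capitals.
miR-375-5p: gCGACGAGccccucgcacaaac
Of 1679 mature miRNAs named in the RefSeq table, 1 carries this seed, miR-375-5p itself. Neither deposited table has a row for miR-375-5p, so the values below are those of the 3p arm alone. The RefSeq table gave a mature sequence for 605 of the 721 listed miRNAs and none for miR-375-3p. The seed shown and its count are therefore those of the 5p arm and not of the miRNA measured here.

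In Sed plasma, miR-375-3p had 123 reads in replicate 1 and 75 in replicate 2. In Exe plasma it had 23766 reads in replicate 1 and 43260 in replicate 2. Both Exe libraries were far above both Sed libraries, with no overlap between the groups. As a share of all miRNA reads, the values were 0.00917% (exact 95% counting interval 0.00762 to 0.0109) and 0.00417% (0.00328 to 0.00523) in Sed. In Exe they were 1.97% (1.94 to 1.99) and 2.45% (2.43 to 2.47). These intervals, here and below, cover counting error only and take reads as independent. Copies of a molecule made by PCR are not, so the intervals can be too narrow, and they leave out the spread between libraries. The mean share was 0.00667% ± 0.00353 in Sed and 2.21% ± 0.342 in Exe (SD, n = 2 each), a 331-fold difference of means. The closest pair of libraries, one from each group, differed 214-fold and the farthest 587-fold. Within the Sed group the 2 libraries differed more, relative to their level, than within the Exe group.

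These are shares of the miRNA reads in a library, so more vesicles that carry miR-375-3p, more copies per vesicle and fewer reads from other miRNAs cannot be told apart. Groups also failed to overlap in the same direction for 52 of the 182 plasma miRNAs tested (28.6%), and in the other direction for 56 (30.8%).

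**Figure D1:**
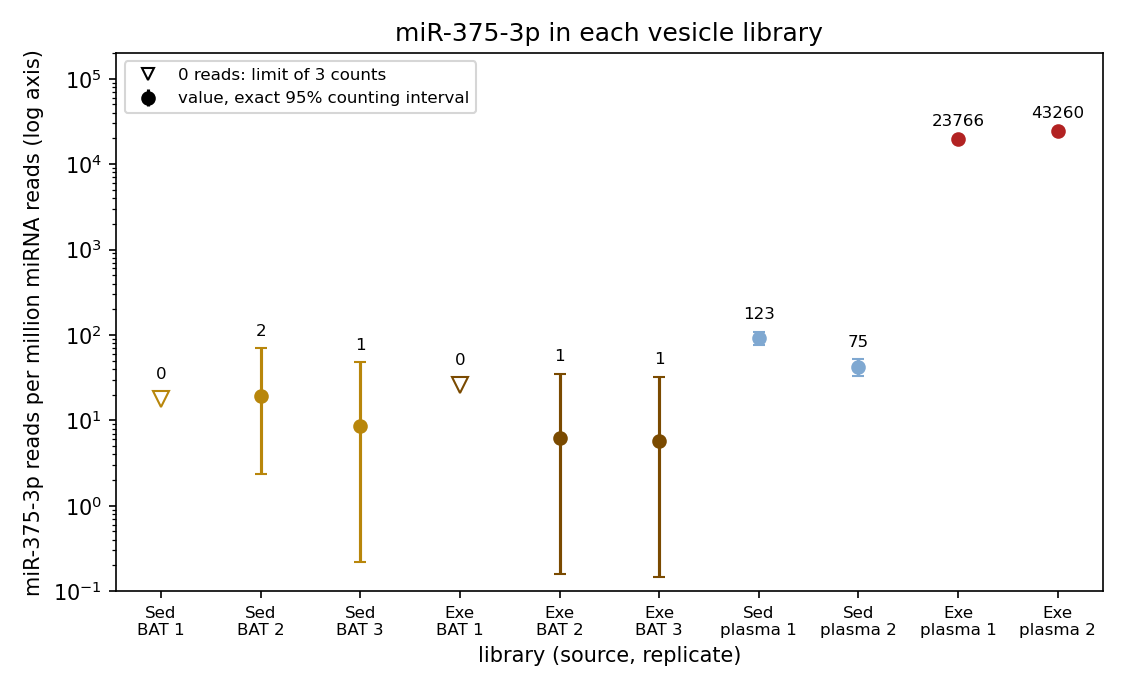
Reads of miR-375-3p per 1000000 miRNA reads in each of the 10 libraries, on a log axis, with exact 95% counting intervals; numbers above the points are reads, and open triangles mark the limit that 3 counts set where a library had 0 reads. The 2 Exe plasma libraries sit at 19656 and 24495 per 1000000, the 2 Sed plasma libraries at 91.7 and 41.7, and the 6 BAT libraries have 0 to 2 reads each.

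The place of miR-375-3p in the plasma profile differed between the groups. By reads it ranked 74 of 223 and 117.5 (tied) of 296 miRNAs with a read in the Sed libraries, and 13 of 252 and 13 of 197 in the Exe libraries. By mean share it was in place 98 in Sed plasma, between miR-15a-5p (0.00674%) and miR-29c-3p (0.00624%), and in place 14 in Exe plasma, between miR-23a-3p (2.45%) and let-7d-5p (2.04%). With 34 and 197 reads for miR-15a-5p and 22 and 195 for miR-29c-3p, the neighbours in Sed did not differ from it beyond the spread between libraries. Nor did those in Exe, with 36508 and 33325 reads for miR-23a-3p and 18136 and 45607 for let-7d-5p. Counts are per mature miRNA with no length scaling, and mature miRNAs are of nearly the same length.

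Among the 20 miRNAs with the highest mean share in Exe plasma, miR-375-3p had the highest ratio of mean shares. The next were miR-1198-5p at 94.1-fold, miR-25-3p at 21.4-fold, miR-150-5p, a lymphocyte miRNA, at 14.2-fold and let-7c-5p at 14.2-fold. At least 1000 reads in each Exe library and under 200 in each Sed library, limits chosen after the values were seen, were met by 6 miRNAs: miR-375-3p, miR-10b-5p, miR-328-3p, miR-342-3p, miR-486b-3p and miR-574-3p. Of these, miR-375-3p had the most reads in Exe.

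On the scale of the model, TMM-scaled counts per 1000000 (CPM), miR-375-3p was at 143 and 42.5 CPM in Sed plasma and at 13249 and 23149 CPM in Exe plasma. The log2 fold change of Exe over Sed was 7.62 ± 1.12 (SE, edgeR, n = 2 each). The median over the 182 tested miRNAs was 0.32 and 8 of them lay higher, led by miR-486a-3p, a red cell miRNA with no read in Sed. Relative to that median, miR-375-3p was at 7.30. Its place of 9 moved to 29 with a mean of at least 50 counts (5.69 above the median) and to 34 with no filter (8.62). It moved to 36 without Sed replicate 1 (7.89), 59 without Sed replicate 2 (4.86), 24 without Exe replicate 1 (9.84) and 25 without Exe replicate 2 (8.14), with more miRNAs tested each time. At an adjusted p under 0.05, edgeR called 0 of the 182 plasma miRNAs (0%). Without adjustment, 60 of them had a p under 0.05 in edgeR, and with adjustment the calls were 57 by DESeq2 and 40 by limma-voom. Each scaling kept the sign of miR-375-3p, at 6.80 with upper-quartile factors, which moved the median of all tested miRNAs by -0.92, and at 8.38 with library size alone, which moved it by 0.62. Relative to the median, the values were 7.39 and 7.43. A plasma value nearer to 0 than these shifts can change sign with the scaling.

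**Figure D2:**
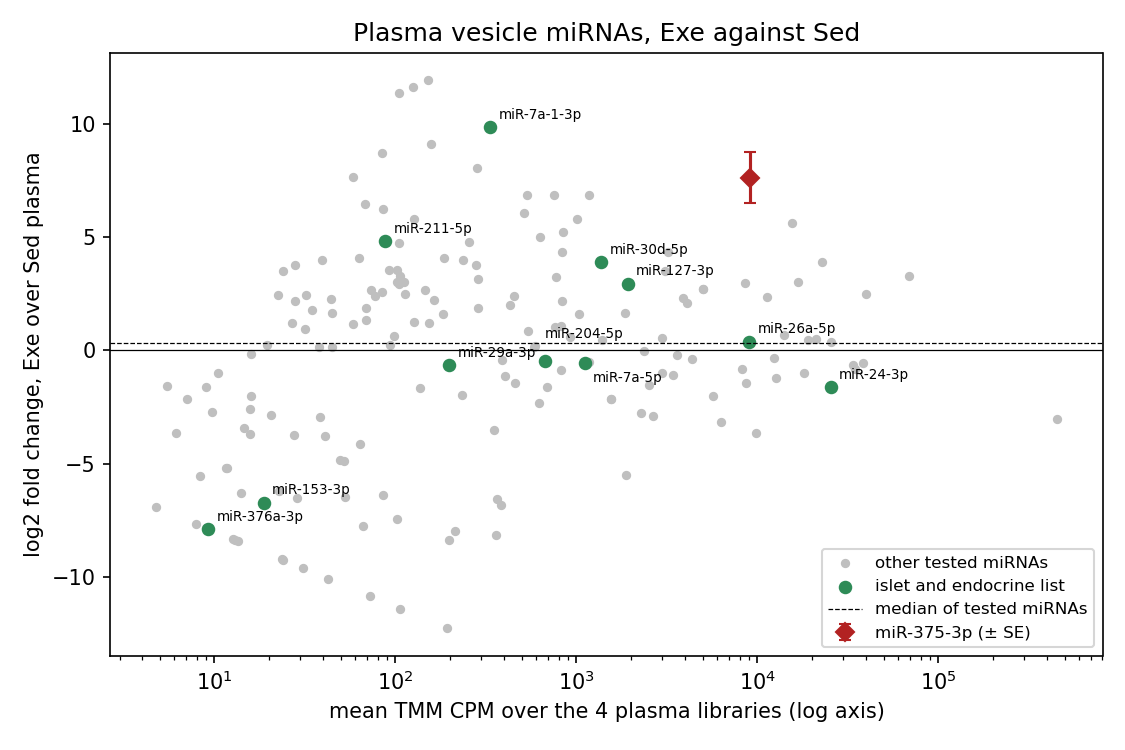
Log2 fold change of Exe over Sed plasma against the mean TMM CPM over the 4 plasma libraries (log axis) for the 182 tested miRNAs, with the islet and endocrine list in green and miR-375-3p as a red diamond with its SE. miR-375-3p lies at 7.62, the highest value among tested miRNAs above 1000 CPM, while the rest of the list lies on both sides of 0.

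Several features of the plasma libraries moved with the groups. Reads of miR-451a, a red cell miRNA, were 69.8% and 52.8% of the libraries in Sed and 11.1% and 13.1% in Exe. With miR-451a left out of the totals, miR-375-3p made up 0.0304% and 0.00883% of the remaining Sed reads and 2.21% and 2.82% of the remaining Exe reads. The ratio of those means was 128, and the groups remained apart by at least 73-fold (72.8 for the closest pair).

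The plasma table also gives a second whole number beside each read count that never exceeds it. No header or label explains it. Summed over all miRNAs it came to 30.2% and 4.67% of the reads in the Sed libraries and to 71.0% and 61.1% in the Exe libraries, so this property of the libraries also moved with the groups. For miR-375-3p the second number was 101 and 21 in Sed against 20205 and 32361 in Exe. As a share of its own reads this was 82.1% and 28.0% in Sed and 85.0% and 74.8% in Exe. In Sed plasma replicate 1, 148 of 159 miRNAs with at least 10 reads had a lower share than miR-375-3p, and in replicate 2, 159 of 197 had one. In Exe, where the share was lower for miRNAs with more reads, 12 of 161 and 12 of 127 had a lower one. By contrast, the second number of miR-451a was 13.1% and 3.45% of its Sed reads.

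Counted by the second number, miR-375-3p made up 0.0249% and 0.0250% of the total in the Sed libraries and 2.35% and 3.0% in the Exe libraries. The 2 Sed libraries were closer to each other on this scale than by reads. The ratio of means was 107, with 94.2 for the closest pair of libraries and 121 for the farthest. The log2 fold change was 6.72 ± 1.13 (SE, edgeR, n = 2 each). The difference was thus smaller by the second number than by reads, and the groups stayed apart on both.

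**Figure D3:**
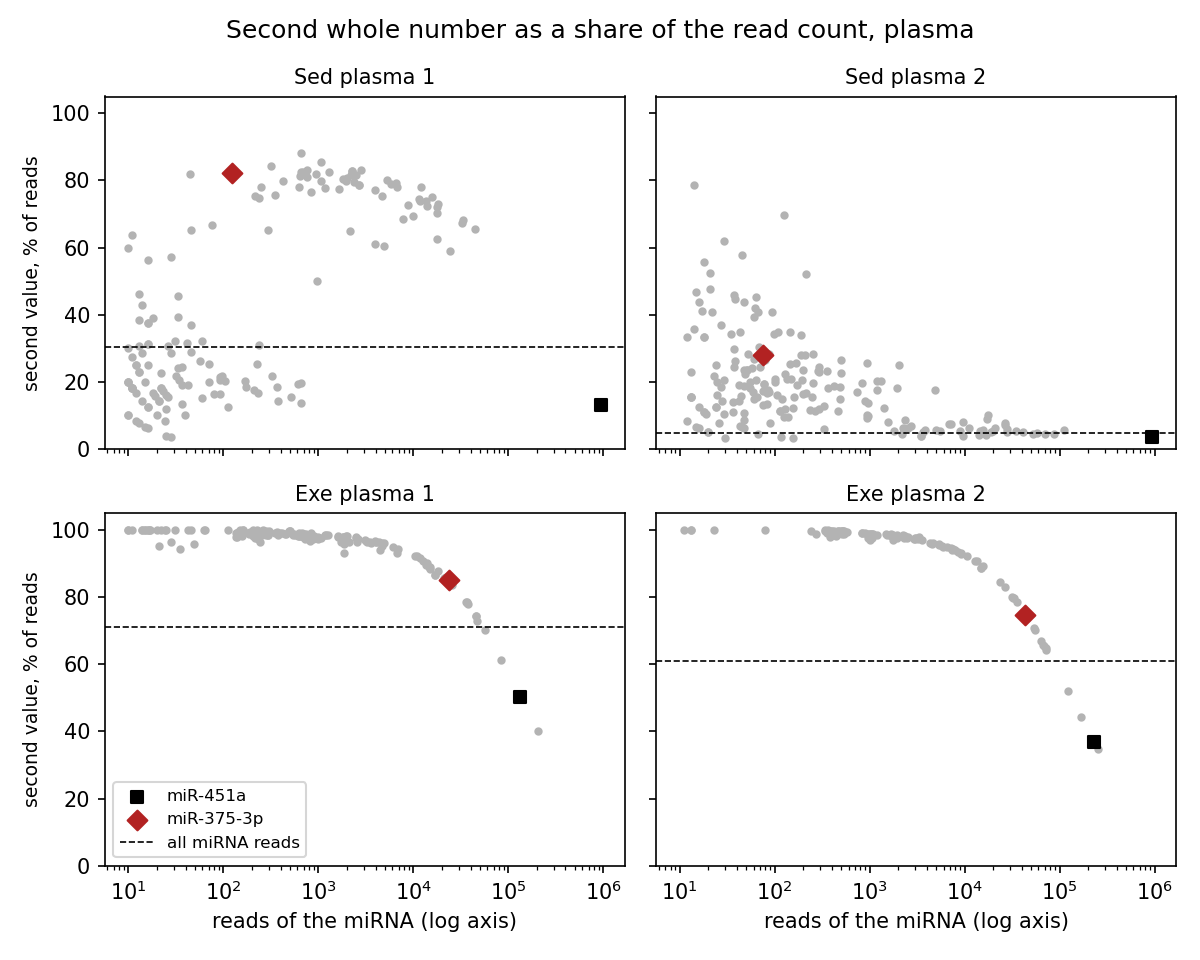
Second whole number as a percentage of the read count, against reads (log axis), for miRNAs with at least 10 reads in each of the 4 plasma libraries; the dashed line is the value over all miRNA reads, the red diamond miR-375-3p and the black square miR-451a. miR-375-3p sits at 82.1% and 28.0% in the Sed libraries and at 85.0% and 74.8% in the Exe libraries, above the dashed line in each.

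**Figure D4:**
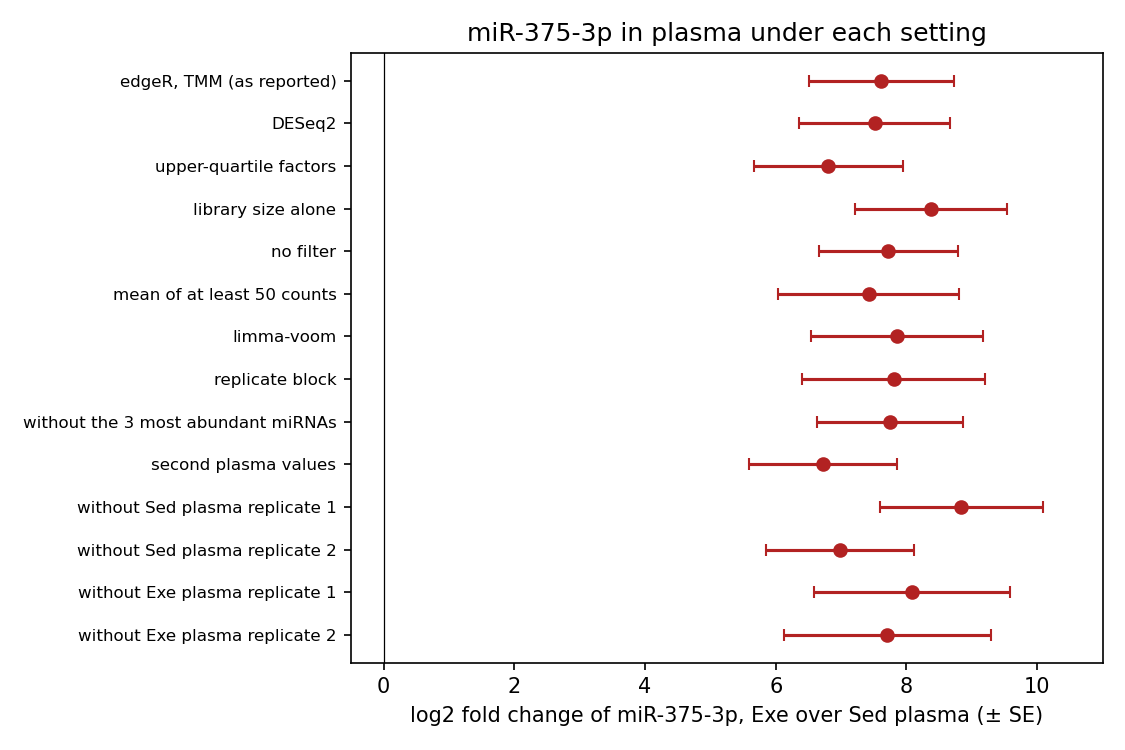
Log2 fold change of miR-375-3p, Exe over Sed plasma, with its SE, under each setting. The values lie between 6.72 with the second plasma values and 8.84 without Sed plasma replicate 1.

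In BAT vesicles miR-375-3p was near the limit of detection in both groups. It had 0, 2 and 1 reads in Sed and 0, 1 and 1 reads in Exe. The groups overlapped, and no library had more than 2 reads. In reads per 1000000 miRNA reads this was 9.28 ± 9.63 in Sed and 4.03 ± 3.50 in Exe (SD, n = 3 each). The difference between the means was smaller than the spread within Sed, and a change was not detectable at this depth. The 2 libraries with 0 reads allow up to 17.7 per 1000000 in Sed replicate 1 and 25.7 per 1000000 in Exe replicate 1, from 3 counts of the total. With so few reads miR-375-3p did not pass the filter on low counts, so edgeR gave no adjusted p for it in BAT, and no fold is given. By mean share it stood beside miR-20b-5p and miR-1941-3p in Sed BAT and beside miR-149-3p and miR-34a-3p in Exe BAT, all with 4 reads or fewer per group. Its mean share was tied, among 4 miRNAs in Sed BAT and 15 in Exe BAT, itself included. miR-20b-5p and miR-149-3p were among those tied, so their place beside it is arbitrary.

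Pooled over libraries, the BAT level was 7.70 per 1000000 in Sed (exact 95% counting interval 1.59 to 22.5) and 4.47 per 1000000 in Exe (0.541 to 16.1). In plasma the pooled level was 63.1 per 1000000 in Sed (54.6 to 72.5) and 22528 per 1000000 in Exe (22360 to 22698). Neither plasma interval holds a library of its own group, at 91.7 and 41.7 in Sed and 19656 and 24495 in Exe. The order of the 4 groups was therefore Exe plasma, Sed plasma, Sed BAT and Exe BAT, and the last 2 did not differ beyond their spread. The share in Sed plasma was 8.19 times that in Sed BAT (2.76 to 40.0), and the share in Exe plasma 5042 times that in Exe BAT (1396 to 41638). At the Sed plasma share, the BAT libraries would have held 6.56 to 10.9 reads each, and at the Exe plasma share 2344 to 3881, against the 0 to 2 counted. Plasma and BAT stand in separate tables, so source and table, with whatever batch goes with it, cannot be told apart.

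A joint edgeR fit of the 4 groups gave log2 differences of plasma over BAT of 5.54 ± 0.87 in Sed and 13.57 ± 1.08 in Exe, and a difference of the 2 exercise contrasts of 8.03 ± 1.45 (SE, given with no test). These values rest on 5 BAT reads in all and on the scaling between sources: with library size alone they were 2.97, 12.23 and 9.26. miR-375-3p passed the filter of this fit through its plasma reads alone. The difference of contrasts contains the BAT contrast, for which no fold is given above.

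Other miRNAs tied to islets and endocrine cells were taken as a list of 16, of which 14 are in either table. In plasma 12 of them were tested and 0 were called in either direction. Values of 6 lay above 0 and of 6 below, with a median of -0.05 against 0.32 over all tested miRNAs. Groups did not overlap for 4 higher members, the selected miR-375-3p among them, and for 4 lower ones, near the 28.6% and 30.8% over all tested miRNAs. miR-7a-5p, which is abundant in islets and shares its seed with miR-7b-5p, had 1827 and 941 reads in Sed plasma against 864 and 2472 in Exe plasma (-0.56 ± 1.34, SE). Both Mir7-1 and Mir7-2 give miR-7a-5p, so its reads cannot be assigned to one precursor, while miR-7a-1-3p is an arm of Mir7-1. miR-7a-1-3p had 0 and 2 reads in Sed against 835 and 1637 in Exe, a ratio of 1304 (counting interval 361 to 10777). In the other direction, miR-7b-5p, which did not pass the filter, had 8 and 294 reads in Sed and none in Exe, at least 95.4-fold lower, with the floor of 3 counts set over the Exe group. That bound rests on Sed replicate 2, and without it was 5.91. miR-7a-1-3p and miR-7b-5p therefore differed in direction, while the groups overlapped for miR-7a-5p. Their sequences are shown because the 5p members share the seed, in capitals, while the 3p arm has another.
miR-7a-5p: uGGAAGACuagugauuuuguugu
miR-7b-5p: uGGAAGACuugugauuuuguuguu
miR-7a-1-3p: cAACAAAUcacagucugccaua

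The second seed pair of the list is miR-204-5p and miR-211-5p, shown for their common seed.
miR-204-5p: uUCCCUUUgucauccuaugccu
miR-211-5p: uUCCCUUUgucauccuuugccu
miR-204-5p had 658 and 1403 reads in Sed plasma against 1062 and 997 in Exe plasma (-0.47 ± 1.32), where the groups overlapped by reads and were apart in TMM CPM. miR-211-5p had 10 and 1 reads in Sed against 610 and 0 in Exe, so that 1 library held nearly all its reads. Reads of miR-153-3p, a neuroendocrine miRNA, numbered 16 and 99 in Sed against 1 and 0 in Exe, a ratio of 109 (19.2 to 4341) in the direction opposite to miR-375-3p. miR-376a-3p, of an imprinted cluster, had 54 reads in Sed and none in Exe, at least 17.1-fold lower. Values were 3.88 ± 1.48 for miR-30d-5p, 2.94 ± 1.09 for miR-127-3p, 0.38 ± 0.70 for miR-26a-5p, -0.66 ± 1.84 for miR-29a-3p and -1.62 ± 0.61 for miR-24-3p. miR-184-3p had 1 plasma read and 3 BAT reads. None of these reached the share of miR-375-3p in Exe plasma, and the list, miR-375-3p included, summed to 5.99% and 6.18% of the Exe reads, against 3.02% and 5.11% of the Sed reads. Without miR-375-3p the Exe sums were 4.03% and 3.73%, within the 3.02% and 5.10% of the Sed libraries. That remainder was mainly miR-24-3p (46271 reads in Exe plasma) and miR-26a-5p (37216). The whole list made up 4.95% to 6.11% of reads in Sed BAT and 5.39% to 5.81% in Exe BAT, so its sum does not set plasma apart from BAT.

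In BAT vesicles, 8 members of the islet and endocrine list were tested and 1 was called, against 22.6% of all 199 tested miRNAs (45 called: 19 higher, 9.55%, and 26 lower, 13.1%, or 26 higher and 20 lower with upper-quartile factors). The call was miR-376a-3p, lower in Exe at -2.0 (edgeR adjusted p = 0.0476). The median of the list was 0.08. miR-7a-5p had 62, 43 and 34 reads in Sed BAT against 40, 86 and 68 in Exe BAT (0.38), and miR-204-5p was at 0.08. In these libraries miR-7a-5p was well above the 5 reads of miR-375-3p, although both are islet miRNAs.

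Acinar cells, the enzyme-secreting cells of the pancreas, have defining miRNAs of their own, miR-216a, miR-216b and miR-217. In plasma miR-216a-5p and miR-216b-5p were listed with 0 reads in all 4 libraries, which allows up to 3 counts in each, and miR-217-5p has no row in either table. In BAT miR-216a-5p had 13 reads in Sed and 8 in Exe, and miR-216a-3p had 1 read in all. miR-148a-3p, which acinar cells share with fat and liver, had 93 and 78 reads in Sed plasma against 25 and 422 in Exe plasma, with overlapping groups. In BAT it was lower in Exe at -1.29 (edgeR adjusted p = 0.036). In plasma neither miR-216a-5p nor miR-216b-5p was seen, in Sed or in Exe, and the tissue that plasma miR-375-3p came from was not tested.

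Epithelia of the gut and other organs also express miR-375. Of 14 miRNAs in their list, 12 were tested in plasma and 0 called, with 3 above 0 and 9 below and a median of -4.99. Groups did not overlap for 0 higher members and 7 lower ones, against 28.6% and 30.8% of all tested miRNAs. The most abundant were miR-192-5p (656 and 7192 reads in Sed, 4047 and 4546 in Exe), miR-215-5p (3 and 14078, then 444 and 1750) and miR-429-3p (696 and 331, then 747 and 3078). Summed, the list made up 0.224% and 1.38% of the Sed reads and 0.437% and 0.671% of the Exe reads, so its groups overlapped where those of miR-375-3p did not. In BAT 1 of 6 tested members was called, against 22.6% of all tested miRNAs: miR-96-5p, lower at -1.94 (edgeR adjusted p = 0.00471), and the most abundant were miR-192-5p at 0.18, miR-203-3p at 0.41 and miR-182-5p at -0.91.

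Of 10 neural and pituitary miRNAs, 5 were tested in plasma and 0 called, with 2 above 0 and 3 below. Groups did not overlap for 1 higher member and 3 lower ones, against 28.6% and 30.8% of all tested miRNAs. Named after its values were seen, the higher one was miR-132-3p (1 and 0 reads in Sed, 42 and 392 in Exe). The lower ones were miR-124-3p, miR-9-5p and miR-338-5p. With 1, 3, 0 and 1002 reads, miR-212-3p rested on Exe plasma replicate 2, while miR-218-5p had 57 and 188 reads in Sed against 10 and 370 in Exe. miR-9-5p, a brain miRNA, had 104 and 505 reads in Sed and 2 in each Exe library. Summed, the list made up 0.0176% and 0.0906% of the Sed reads and 0.00455% and 0.10% of the Exe reads. In BAT 0 of 2 tested members were called, against 22.6% of all tested miRNAs, with miR-218-5p at -0.49 and miR-338-3p at 0.28. There miR-338-5p had 21 reads in all.

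Lists for blood and other tissues moved with the plasma groups to different degrees. Red cell miRNAs made up 52.8% to 70.0% of reads in Sed and 12.7% to 14.1% in Exe, nearly all of it miR-451a. Without miR-451a they made up 0.167% and 0.00923% in Sed and 1.60% and 0.997% in Exe. Of the 6 tested members, 4 were higher in Exe without overlap and 1 lower, against 28.6% and 30.8% of all tested miRNAs. The higher ones include miR-486a-5p and miR-486b-5p, which have identical counts, and the list median of 2.72 is their value. Blood leukocyte miRNAs 1.0% to 1.38% in Sed and 3.29% to 3.55% in Exe. The other lists overlapped between the groups: liver (1.83% to 6.26%, then 3.77% to 3.81%), platelet and endothelial (2.41% to 4.41%, then 3.43% to 5.83%), muscle (0.207% to 0.651%, then 0.563% to 0.683%) and brown fat (0.165% to 0.502%, then 0.11% to 0.419%). Their part in the value of miR-375-3p was not tested. Plasma values of the most abundant members were -3.03 for miR-451a, 2.72 for miR-486a-5p, whose counts equal those of miR-486b-5p, -0.58 for miR-122-5p, 0.44 for miR-191-5p, -1.0 for miR-126a-3p and 1.60 for miR-223-3p. They were -0.35 for miR-146a-5p, 2.99 for miR-150-5p, 6.85 for miR-342-3p, -0.21 for miR-1a-3p, -0.86 for miR-499-5p, 6.07 for miR-206-3p, -2.90 for miR-378a-3p, 4.99 for miR-328-3p and 2.27 for miR-378a-5p. miR-122-3p, the minor arm of the main liver miRNA, had 1146 reads in Sed and none in Exe, at least 362-fold lower.

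In BAT, calls higher and lower in Exe numbered 3 and 1 of 9 tested brown fat members and 1 and 0 of 1 for liver. They numbered 0 and 1 of 6 for red cell and 0 and 1 of 6 for blood leukocyte. For muscle they were 0 and 1 of 5, and for platelet and endothelial 0 and 0 of 4. Over all tested BAT miRNAs the shares were 9.55% and 13.1%. Higher in Exe were miR-193b-3p (1.17), miR-328-3p (1.26), miR-455-3p (1.57) and miR-122-5p (2.62), the last with overlapping groups (edgeR adjusted p = 0.0493). Lower were miR-32-5p (-1.35), miR-486b-3p (-1.13), miR-142a-3p (-1.19) and miR-1a-3p (-1.47) (edgeR). The 3 most abundant members of each list, where without a call, were miR-378a-3p (0.73), miR-378a-5p (0.67), miR-451a (0.17), miR-144-3p (-0.54), miR-486a-5p (-0.71), miR-126a-3p (-0.12), miR-126a-5p (0.32), miR-191-5p (0.41), miR-150-5p (0.30), miR-146a-5p (-0.39), miR-342-3p (-0.06), miR-133a-3p (0.46) and miR-206-3p (0.19). Of the other brown fat members, named after their values were seen, miR-365-3p was at -1.08 (3881 reads, edgeR adjusted p = 0.0547) and miR-193a-3p at -0.69 (2644 reads).

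The miRNAs with the pattern most like that of miR-375-3p were ranked by the root mean square difference between log2 CPM profiles, each centred on its own mean. Over the 4 plasma libraries and 181 other tested miRNAs, whose median difference was 4.42 log2 units, the closest were miR-191-3p (0.65), miR-872-3p (0.67), miR-486a-3p (0.71), miR-10b-5p (0.86), miR-676-3p (0.93), miR-223-5p (0.97), miR-7a-1-3p (1.0), miR-224-5p (1.02), miR-486b-3p (1.15) and miR-574-3p (1.28). All 10 were far below miR-375-3p in reads. miR-10b-5p had the most, with 16 and 38 reads in Sed against 3207 and 5360 in Exe, then miR-574-3p with 41 and 44 in Sed against 4890 and 2356 in Exe. miR-191-3p and miR-486a-3p had no read in Sed, at least 325-fold and 397-fold higher in Exe. Of the 10, 7 are 3p arms (70.0%), against 75 of the 182 tested miRNAs (41.2%), a difference that was not tested. Sequences are shown for 4 of the 10 to compare their seeds, in capitals, which all differ.
miR-191-3p: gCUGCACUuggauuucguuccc
miR-872-3p: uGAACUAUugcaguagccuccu
miR-10b-5p: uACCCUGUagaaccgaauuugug
miR-574-3p: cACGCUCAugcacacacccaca

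Over all 10 libraries and 233 other miRNAs in both tables (median difference 5.76), the closest were miR-25-3p (1.58), miR-1198-5p (1.67), miR-196b-5p (2.0), miR-486a-5p with its identical counterpart miR-486b-5p (2.45), miR-429-3p (2.50), miR-139-5p (2.67), miR-34c-3p (2.91), miR-341-3p (3.02) and miR-486b-3p (3.03). miR-486b-3p alone was in both sets. Each of these profiles lay below its own mean in every BAT library and above it in both Exe plasma libraries, with a narrower span than miR-375-3p. BAT was not below Sed plasma in all of them. For miR-486b-3p the centred values were -2.36 and -0.84 in Sed plasma and -1.74 to -0.38 in BAT. miR-25-3p had 2511 and 5024 reads in Sed plasma, 36898 and 122512 in Exe plasma and 260 in BAT. miR-1198-5p had 1061 and 21 reads in Sed plasma, 47182 and 64483 in Exe plasma and 94 in BAT, so that its Sed libraries differed far more than those of miR-375-3p. miR-196b-5p, a miRNA of the Hox gene clusters, had 214 and 84 reads in Sed plasma, 1615 and 3586 in Exe plasma and 17 in BAT. Their sequences are shown as those of the closest 3, with no seed in common.
miR-25-3p: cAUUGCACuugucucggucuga
miR-1198-5p: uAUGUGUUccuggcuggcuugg
miR-196b-5p: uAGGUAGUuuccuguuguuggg

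**Figure D5:**
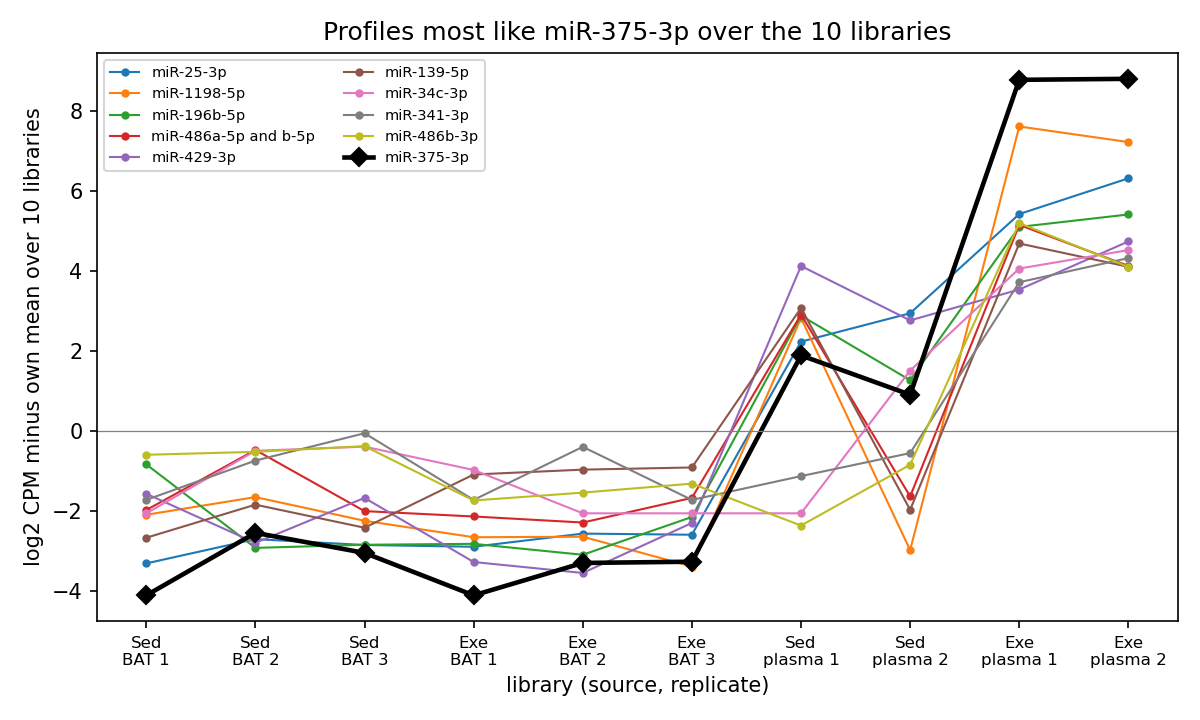
Log2 CPM (TMM, prior count 2) of miR-375-3p and the 10 miRNAs with the most similar profiles, each minus its own mean over the 10 libraries; lines only join the points of one miRNA, and the 2 miRNAs with identical counts are drawn once. miR-375-3p has the widest span of those drawn, lowest in BAT and highest in Exe plasma.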

How the data were processed

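The authors deposited small RNA-seq results as a BAT table and a plasma table, whose read counts for each miRNA in each library are counts per the file headers. The submitters' processing notes list Bowtie 0.12.2 with mm8 and mm9, and do not say what each was used for. How reads were trimmed, filtered and counted is not given in the sources used here. BAT values in RPM were deposited too, each a read count divided by 1 total per library (18.9 to 21.2 in units of 1000000 reads). A second set of plasma values, deposited as whole-number counts, is of unstated making.

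Counts were analysed with R 4.3.3, edgeR 4.0.16 (quasi-likelihood, TMM, filterByExpr, Benjamini-Hochberg adjustment, threshold 0.05), limma 3.58.1 and DESeq2 1.42.0, and with Python 3.11.15, scipy 1.17.1 and matplotlib 3.10.9. The SE is the log2 fold change over the square root of F. Folds against 0 reads use a floor of 3 counts over the group. Sequences are from RefSeq (GRCm38.p6) and gene positions from GENCODE M21.

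The miRNA, the lists and the rules were chosen with earlier results of these data known. Named are miR-375-3p, all islet, endocrine and acinar list members in a table, the called and the 3 most abundant members of other lists, rank neighbours, and the 10 miRNAs most like it in each set. In BAT, miR-375-3p had too few reads for the filter, so edgeR gave no value and its levels are described.

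Deviations of same-numbered libraries were not clearly correlated, and the numbers were not taken as pairs. This check is too small to settle whether they are pairs, and a fit with the number as a block is given below.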

Additional observations from a re-analysis of the deposited data

How the results depend on the processing

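In plasma the log2 fold change of miR-375-3p stayed above 0 under every alternative run. It was 6.72 with the second plasma values, 7.42 with a mean of at least 50 counts, 7.75 without the 3 most abundant miRNAs and 6.99 to 8.84 with 1 library left out, where the lone library is assumed to vary like the others. The number of plasma miRNAs called was 57 with DESeq2, 4 with upper-quartile factors, 10 with library size alone, 17 with no filter, 29 with a mean of at least 50 counts, 40 with limma-voom, 1 without the 3 most abundant miRNAs, 11 with the second plasma values and 3 to 27 with 1 library left out (27 without Sed replicate 1, 24 without Sed replicate 2, 27 without Exe replicate 1, 3 without Exe replicate 2), against 0. The cause was not tested. In BAT 21 were called with a mean of at least 50 counts, where fewer miRNAs were tested, and 16 to 56 with 1 library left out (16 without Exe replicate 3, 22 without Exe replicate 1, 28 without Exe replicate 2), against 45.

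With the replicate number as a block, miR-375-3p was at 7.81 in plasma, 7 plasma and 25 BAT miRNAs were called, and the joint values were 8.03, 5.81 and 13.84. Correlations of the deviations of same-numbered libraries were 0.0042, -0.0833 and -0.12 in BAT and -0.0755 in plasma. Those of differently numbered libraries were -0.0445 to 0.1726 in BAT and 0.0755 in plasma. With 2 libraries per plasma group, centring makes them mirror images, so the plasma values differ in sign alone.

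In the joint fit the difference of contrasts was 7.06 with upper-quartile factors, 9.26 with library size alone, 7.15 with the second plasma values and 7.43 to 8.75 with 1 library left out. Plasma over BAT in Sed was 2.97 with library size alone, 4.87 with a mean of at least 50 counts, 6.14 with the second plasma values and 4.75 to 6.36 with 1 library left out. In Exe it was 12.50, 12.23 and 12.42 with upper-quartile factors, library size alone and a mean of at least 50 counts, and 13.13 to 13.88 with 1 library left out.

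The BAT difference of Exe minus Sed, -5.24 reads per 1000000, was -9.88 to -0.273 with 1 library left out, and -0.273 without Sed replicate 2, and is given with no test. Of the 10 most similar profiles, 9 were shared with a prior count of 0.5 and 9 with upper-quartile factors over 10 libraries, and 8 and 9 over the plasma libraries. In BAT, depth limits what can be said of miR-375-3p, since 1 read is worth more there than in plasma.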
